A study of Homo sapiens with 2 samples.

Results

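The unnamed assembled loci are 331 of the 60954 rows of the count table. They were chosen by their identifiers, which start with MSTRG, and by an empty gene name. No row with a gene name carries an MSTRG identifier, so every locus of that kind in the table is included. The table gives each locus a length, its counts and, for some, the best match to known proteins. Their sequences and positions were not used here.

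The counts come from RNA-seq of 2 libraries from HCT116, an epithelial line from a human colon carcinoma, with wild-type genotype in the labels. The siControl cells received a non-specific siRNA and the siKAT7 cells an siRNA against KAT7, both with a lipid reagent. The table heads the second library siHBO1, and it was taken as siKAT7 because HBO1 is another name of KAT7. The sources used here do not give the time after transfection. KAT7 acetylates lysines of histones, and the comparison asked how its knockdown changes transcription. Each group had 1 library, so no difference below has a replicate check, and each interval covers counting error only.

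Genome-guided assembly joins aligned reads into transcript models, and models that could not be given the name of an annotated gene keep a running number. Such loci can come from RNA that the annotation lacks, from repeated sequence such as ribosomal DNA and endogenous retroviruses, or from stray reads between and within genes. Ribosomal DNA holds the genes of the 18S, 5.8S and 28S rRNAs in many near-identical copies, which is why reads from it are hard to assign to 1 place. Endogenous retroviruses are remnants of ancient germline infections, and some copies are transcribed in stem cells and tumour cells.

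Over all rows the siControl library held 23712888 expected counts and the siKAT7 library 23932004. An expected count is an estimate and can be fractional, because a read that fits several models is divided among them. KAT7 had 443 counts in siControl and 287 in siKAT7, a log2 ratio of -0.52 (95% counting interval -0.74 to -0.31). All 6 epithelial markers examined were above 1 CPM in the mean of the libraries, with summed levels of 11731 CPM in siControl and 12410 CPM in siKAT7, where CPM is counts per 1000000 of the scaled library. Of 4 blood and 3 endothelial markers, none reached 1 CPM in the mean, and PTPRC, PECAM1 and CDH5 were at 0 in both libraries. Of 4 fibroblast markers, COL1A1 passed, at 31.2 and 31.1 CPM, while COL1A2 had 0 counts in siControl and 1 in siKAT7.

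The loci held more of the siKAT7 library than of the siControl library, and this difference lay in a few of them. Their counts made up 1.11% of siControl (262557 counts, exact Clopper-Pearson interval 1.10% to 1.11%) and 1.67% of siKAT7 (398817 counts, 1.66% to 1.67%). The 4 loci with the most counts over both libraries held 0.884% of siControl and 1.45% of siKAT7. The other 327 loci held 0.223% of siControl (0.221% to 0.225%) and 0.217% of siKAT7 (0.215% to 0.219%). Without the 4 largest loci the share was thus slightly smaller in siKAT7 than in siControl.

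The locus with the most counts was MSTRG.24234, whose best Swiss-Prot match is mouse NLRC3, a cytosolic receptor that restrains innate immune signalling. A best match does not make a locus a gene of that protein, and whether MSTRG.24234 encodes any protein was not tested. MSTRG.24234 had 99778 counts in the siControl library (4100 CPM) and 188784 in the siKAT7 library (8325 CPM). By counts it ranked 22 among all rows of the table in siControl and 9 in siKAT7. This locus alone held 38.0% of the counts of the unnamed loci in siControl and 47.3% in siKAT7. Its log2 ratio, siKAT7 over siControl, was 1.02 (1.01 to 1.03), a 2.03-fold higher level in siKAT7.

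MSTRG.24220, MSTRG.24217 and MSTRG.24238 followed, and all of them have the yeast protein ART2 as their best match. ART2 is a putative protein named for its place antisense to the rRNA genes of yeast. MSTRG.24220 had 51103 counts in siControl and 74146 in siKAT7, with a log2 ratio of 0.64 (0.62 to 0.65). MSTRG.24217 had 42226 and 50726 counts and the smallest ratio of the 3, at 0.37 (0.35 to 0.39). MSTRG.24238 had 16502 and 33235 counts and a log2 ratio of 1.11 (1.09 to 1.14). No named row of the table carries the ART2 match.

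All of the 4 largest loci were therefore higher in siKAT7, between 1.29-fold for MSTRG.24217 and 2.16-fold for MSTRG.24238. Their summed log2 ratio was 0.83 (0.82 to 0.84). All 4 have counts that are not whole numbers, so some of their reads were divided with other models. The intervals do not cover that division. Values are relative to TMM scaling, which sets the bulk of named genes to a common level. Scaling by total counts lowers every log2 ratio by 0.11, which puts MSTRG.24234 at 0.91 and leaves the direction of all 4 as it was.

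**Figure D1:**
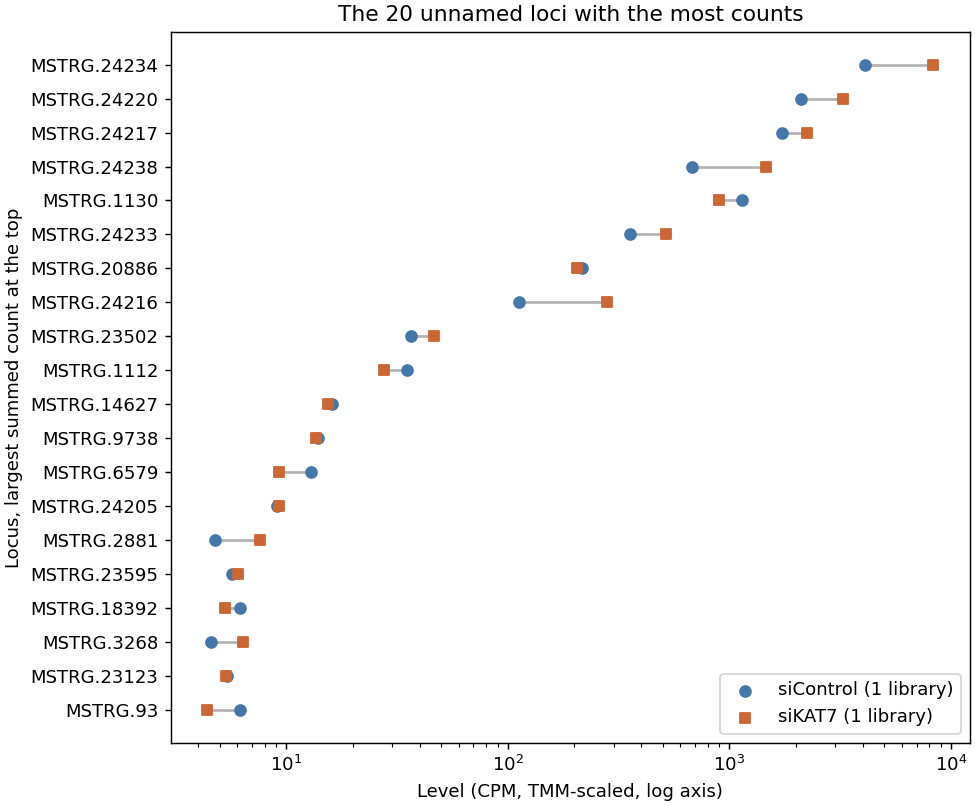
Level of the 20 unnamed loci with the most counts (x axis, CPM after TMM scaling, log axis; circles siControl, squares siKAT7, 1 library each). The 4 uppermost loci lie between 678 and 4100 CPM in siControl and between 1466 and 8325 CPM in siKAT7, and MSTRG.1130 in the fifth place has the order of the libraries turned.

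The fourth locus and the next one had nearly equal counts. MSTRG.24238, the fourth, had 49737 counts over both libraries, and MSTRG.1130, the fifth, had 48091. MSTRG.1130 moved the other way, from 27687 counts in siControl to 20404 in siKAT7 (1138 and 899.8 CPM). Its log2 ratio was -0.34 (-0.36 to -0.31), a 1.26-fold lower level in siKAT7.

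MSTRG.1130 is 5520 bases long, and its best match is the protein of ESRG, a gene derived from a HERV-H endogenous retrovirus and known from human embryonic stem cells. The table also lists a retroviral Gag core domain and zinc knuckles for it. MSTRG.20886, with 858 bases and the same match, went from 5244 counts in siControl to 4669 in siKAT7, a log2 ratio of -0.07 (-0.12 to -0.01). The third locus with this match, MSTRG.20887, had 4.59 and 14.13 counts. Together the 3 ESRG-matched loci had a log2 ratio of -0.29 (-0.31 to -0.27). The 35 named rows with the ESRG match summed to 263 counts in siControl and 218 in siKAT7, far fewer than MSTRG.1130 alone.

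The ESRG gene itself (ENSG00000265992) had 154 counts in siControl and 111 in siKAT7, a log2 ratio of -0.37 (-0.74 to -0.01). Part of the counts of MSTRG.1130, MSTRG.20886 and ESRG are not whole numbers, so some of their reads were divided with other models.

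The other loci above 1000 summed counts were MSTRG.24233, MSTRG.24216, MSTRG.23502 and MSTRG.1112. MSTRG.24233 had whole counts of 8690 in siControl and 11793 in siKAT7, with a log2 ratio of 0.54 (0.50 to 0.58), and its nearest protein in the nr database is a predicted proline-rich protein of a macaque. MSTRG.24216, the longest locus at 6227 bases, matches TAR1, a yeast protein encoded antisense to rRNA. It had the highest ratio among the 20 largest loci, with 2731 and 6346 counts and a log2 ratio of 1.32 (1.25 to 1.38). MSTRG.23502 had 888 and 1050 counts and a log2 ratio of 0.34 (0.21 to 0.47). MSTRG.1112, with 851 and 623 counts, had a log2 ratio of -0.35 (-0.50 to -0.20).

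The 12 loci ranked 9 to 20 had log2 ratios from -0.48 to 0.67, with 5 above 0 and 7 below, and none was 2-fold higher or lower. Their summed log2 ratio was 0.00 (-0.06 to 0.07). MSTRG.9738, matched to the LINE-1 ORF2 protein that copies this mobile element back into DNA, was in this range with 339 and 308 counts and a log2 ratio of -0.04 (-0.26 to 0.19). MSTRG.2881, with 116 and 172 counts, had the highest ratio of the 12, and MSTRG.93, with 150.3 and 99.99 counts, the lowest.

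The match shared by MSTRG.24234 leads to named rows with known places in the genome. The same mouse NLRC3 match is given for 4 named rows, FP671120.6, FP671120.7, FP236383.4 and FP236383.5, which GENCODE 29 lists as long intergenic noncoding RNAs of 1 exon. The table describes them as similar to a myogenesis RNA associated with the factor YY1. On GRCh38 they lie on the minus strand of chromosome 21, at 8210384 to 8211306, 8254592 to 8255514, 8393419 to 8394341 and 8437629 to 8438551, in the order FP671120.6, FP671120.7, FP236383.4 and FP236383.5. Behind each of them a 5.8S rRNA gene follows on the plus strand after 1265 to 1271 bases. Each thus lies near a 5.8S rRNA gene and on the opposite strand.

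Of the 4 transcripts, 3 have one and the same sequence of 923 bases, and FP671120.7 differs from it in 2 of 922 aligned bases and by 1 unpaired base in each. Their first 150 bases, from GENCODE 29, are shown because they let a reader see what kind of sequence shares the protein match of the largest locus. They are not the sequence of MSTRG.24234 itself, and they were not compared with rRNA sequences here. Both are written 5′ to 3′ in the direction of the transcript, and capitals mark bases that differ or have no partner in the alignment.
FP671120.6: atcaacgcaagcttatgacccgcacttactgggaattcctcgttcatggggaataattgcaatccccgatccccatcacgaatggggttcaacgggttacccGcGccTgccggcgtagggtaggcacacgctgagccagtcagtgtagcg
FP671120.7: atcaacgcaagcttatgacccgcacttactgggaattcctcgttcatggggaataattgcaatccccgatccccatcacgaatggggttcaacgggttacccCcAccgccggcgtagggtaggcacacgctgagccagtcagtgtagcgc

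The named rows with this match were also higher in siKAT7. FP671120.6 had 7493 counts in siControl and 21985 in siKAT7, a log2 ratio of 1.65 (1.62 to 1.69). FP671120.7 had 14623 and 34346 counts, with a ratio of 1.33 (1.31 to 1.36). FP236383.4 had 10653 and 15305 counts, with a ratio of 0.62 (0.59 to 0.66), and FP236383.5 had 10307 and 16612, with 0.79 (0.76 to 0.83). Since 3 of these transcripts are identical in sequence, the division of reads among them is uncertain, and their sum is the safer value. Summed over the 4 rows, the log2 ratio was 1.14 (1.12 to 1.15), and with MSTRG.24234 added it was 1.06 (1.05 to 1.07).

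Counts of 5.8S rRNA were also higher in siKAT7. The 8 rows of this RNA with counts summed to 183076 in siControl and 284288 in siKAT7, which gives 0.74 on the log2 scale (0.73 to 0.75). Most of this stood in 1 row named 5_8S_rRNA (ENSG00000273730), with 176145 and 271987 counts, which was taken into the sum after its values were seen. Transcript sequences were compared for the 4 rows on chromosome 21, which share 1 sequence, so the division of reads among those 4 is uncertain. The row ENSG00000273730 was not in that comparison. No row of the table carries an 18S, 28S or 45S rRNA name. Whether rows with other names, or with none, hold sequence of these RNAs was not tested. The 2 mitochondrial rRNA genes, MT-RNR1 and MT-RNR2, had a summed log2 ratio of -0.15 (-0.16 to -0.13). They differed in direction, with MT-RNR1 at 0.08 (0.05 to 0.11) and MT-RNR2, which had more counts, at -0.19 (-0.20 to -0.18).

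The 5 loci matched to ART2, TAR1 or NLRC3 had a summed log2 ratio of 0.84 (0.83 to 0.84), and each of the 5 was higher in siKAT7. They held 80.9% of the counts of the unnamed loci in siControl and 88.6% in siKAT7. The remaining 326 loci summed to 50218 counts in siControl and 45581 in siKAT7, a log2 ratio of -0.04 (-0.06 to -0.02). MSTRG.1130, lower in siKAT7, held 27687 and 20404 of these counts. Among the 81 of the 326 loci that passed 1 CPM, 46 lay above 0 and 35 below, with a median log2 ratio of 0.17. Counts of 5.8S rRNA were higher in siKAT7, like those of the 5 matched loci. The part of this RNA in the differences between the loci was not tested. The sources used here do not give the strand setting of the counting, so reads of rRNA and of transcripts antisense to it cannot be told apart.

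The sum over all 331 loci depended on which loci were in it. It had a log2 ratio of 0.71 (0.70 to 0.71), or 1.63-fold higher in siKAT7. Without MSTRG.24234 the ratio was 0.47 (0.46 to 0.48), and without the 4 largest loci it was 0.07 (0.06 to 0.09). Leaving out the fifth, MSTRG.1130, as well brought it back to 0.42 (0.40 to 0.45), since this locus, lower in siKAT7, held 27687 of the remaining 52948 siControl counts. Without the 8 largest loci the ratio was 0.12 (0.08 to 0.16), and without the 20 largest 0.21 (0.15 to 0.27). Under total-count scaling the ratio without the 4 largest was -0.03, so its sign depended on the scaling.

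**Figure D2:**
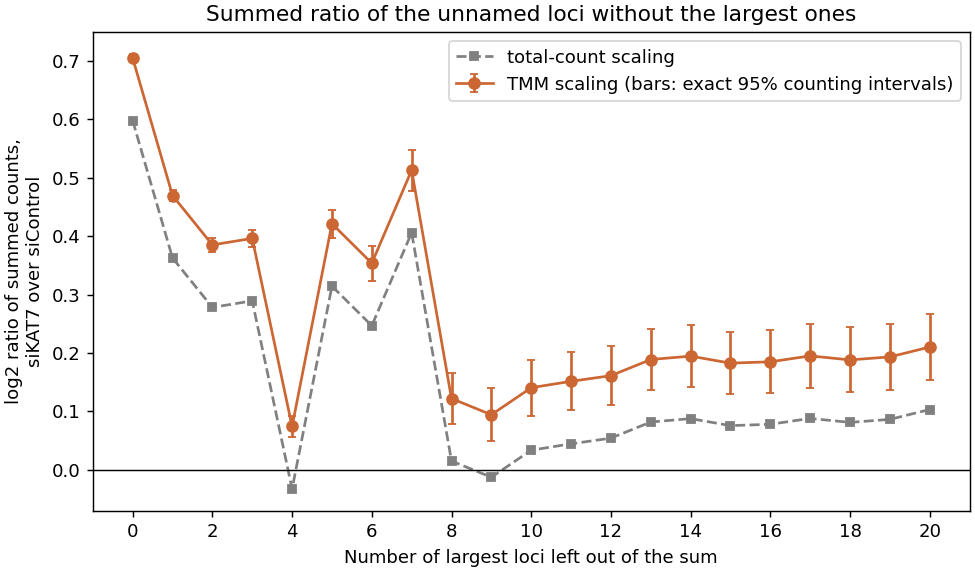
Log2 ratio of summed counts, siKAT7 over siControl (y axis), after leaving out from 0 to 20 of the largest loci (x axis), with TMM scaling (circles, bars are exact 95% counting intervals) and total-count scaling (squares). The value falls from 0.71 with every locus to 0.07 without 4, stands at 0.42 without 5 and at 0.12 without 8.

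A few loci held most of the counts. The 4 loci largest over both libraries held 79.8% of the loci's counts in siControl and 87.0% in siKAT7. The 4 largest of siControl itself, with MSTRG.1130 in place of MSTRG.24238, held 84.1%. In each library 2 loci were enough for 50% of the counts and 5 for 90%, while 99% took 50 loci in siControl and 32 in siKAT7. Among named rows the 20 largest held 15.4% of the counts in siControl and 15.9% in siKAT7, against 98.2% and 98.7% for the 20 largest unnamed loci of each library, with 60623 named rows and 331 loci in the comparison. The 311 loci below rank 20 in siControl shared 1.82% of its counts.

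Most of the loci were therefore covered by few reads. The median locus had 8 counts in siControl and 9 in siKAT7. Of the 331 loci, 229 had counts in both libraries, 46 in siKAT7 alone, 31 in siControl alone and 25 in neither. Counts in at least 1 library were found for 92.4% of the loci, against 39.0% of named rows. Assembled models are built from aligned reads and annotated genes are not, so this contrast can follow from how the rows were made. A sum of 100 counts was reached by 47 loci and a sum of 1000 by 10.

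Loci seen in 1 library alone had few counts there. The largest was MSTRG.3498, with 0 counts in siControl and 17 in siKAT7, and the counting interval of its log2 ratio began at 2.15. MSTRG.16149, the largest in the other direction, went from 16 counts to 0, and its interval ended at -1.85.

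A mean of at least 1 CPM was reached by 86 loci, and by the rule of a 2-fold or larger difference with an interval that excluded 0, siKAT7 was above siControl in 9 of them and below in 7. Among the 13217 named genes with the same mean, 1.35% were higher and 1.09% lower by this rule, against 10.5% and 8.14% of the loci. The loci lie mostly at low levels, where ratios scatter more: 51 of the 86 had a mean of 1 to 3 CPM. In that range 9.80% of the loci were higher and 13.7% lower, against 5.17% and 5.44% of 2263 named genes. An assembled locus needs reads to be listed and an annotated gene does not. Shares of named genes are thus not a like background for the loci, even at the same level. By a 1.5-fold rule 19 loci were higher and 10 lower, against 3.89% and 3.9% of the named genes. The loci's median log2 ratio was 0.19 and that of the named genes -0.00, and 51 loci lay above 0 and 35 below. Intervals included 0 for 51.2% of the loci and 55.0% of the named genes, and at 1 to 3 CPM for 62.7% and 74.5%.

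The 9 higher loci were of different kinds. MSTRG.24234, MSTRG.24238 and MSTRG.24216, described above, were the 3 with more than 1000 counts. The other 6 had between 46.55 and 179 summed counts. Among them MSTRG.2404 had 52 counts in siControl and 127 in siKAT7, a log2 ratio of 1.38 (0.91 to 1.88), and MSTRG.23475 had 34.01 and 79.32 counts, a ratio of 1.31 (0.72 to 1.94). A Swiss-Prot match was listed for MSTRG.23475 (the zinc finger protein ENSP00000375192) and MSTRG.12039 (C16orf89), and the other 4 had none. MSTRG.12039 had 28 and 57 counts and a log2 ratio of 1.11 (0.45 to 1.83), which came just under 2-fold with a prior count of 5 or library totals from all rows. Under total-count scaling 6 loci were higher and 9 lower.

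The 7 lower loci each had fewer than 100 counts over both libraries. MSTRG.18334 had the lowest ratio, with 44 counts in siControl and 8 in siKAT7, a log2 ratio of -2.29 (-3.66 to -1.25). MSTRG.9130 had 72 and 24 counts and a log2 ratio of -1.46 (-2.21 to -0.80). Both match the same putative human zinc finger protein, ENSP00000375192, as do 15 loci in all. Those 15 had a summed log2 ratio of 0.17 (0.07 to 0.27), with 5 of the 10 that passed 1 CPM above 0 and 5 below. MSTRG.18333, matched to a protein derived from the Tigger DNA transposon, had 37 and 16 counts and a log2 ratio of -1.08 (-2.05 to -0.23). With a prior count of 5 MSTRG.18333 fell under 2-fold (-0.92). The loci named in this and the preceding sentences with under 100 counts were chosen after their values were seen.

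**Figure D3:**
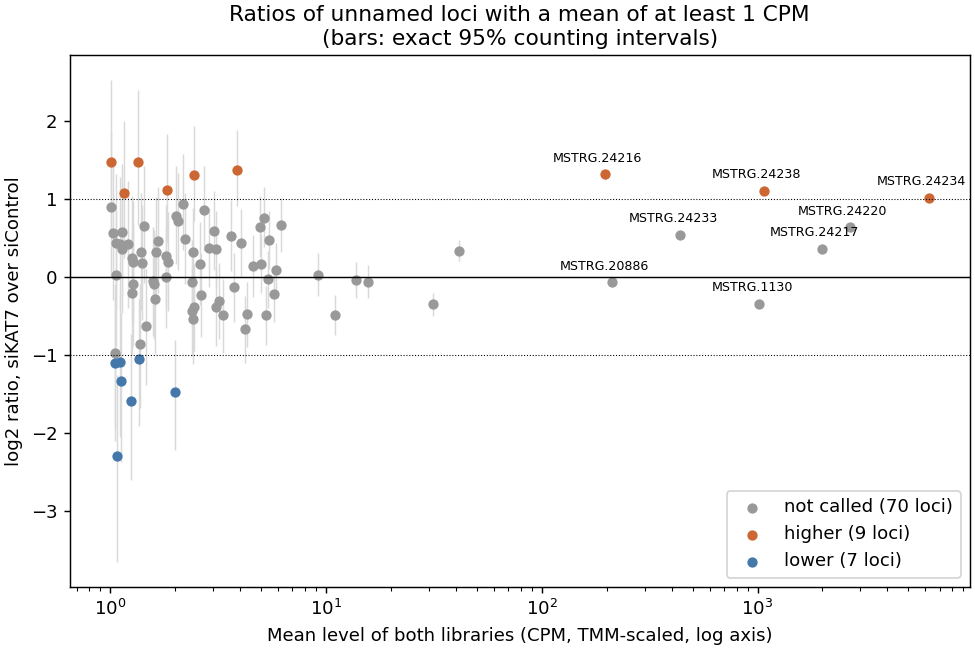
Log2 ratio, siKAT7 over siControl (y axis), against the mean level of both libraries (x axis, CPM, log axis) for the 86 loci with a mean of at least 1 CPM; bars are exact 95% counting intervals and dotted lines mark 2-fold. The 9 higher and 7 lower loci stand mostly at the left, where intervals are wide, and the 3 higher loci at the right are MSTRG.24216, MSTRG.24238 and MSTRG.24234.

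Most loci had no Swiss-Prot match. A Swiss-Prot match was listed for 81 loci, or 24.5%, against 66.9% of named rows. A match in nr was listed for 170 loci, and 160 loci had neither. A Pfam domain was given for 11 loci. The most frequent matches were ENSP00000375192 with 15 loci and the human protein C16orf89 with 12. The 12 loci with the C16orf89 match summed to 426 counts in siControl and 353 in siKAT7, a log2 ratio of -0.17 (-0.38 to 0.04).

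Apart from ESRG, loci matched to a LINE-1, retroviral or transposon protein held few counts. Whether loci with other matches stem from mobile elements was not tested. The 4 LINE-1 ORF2 matches summed to 377 counts in siControl and 334 in siKAT7, a log2 ratio of -0.07 (-0.29 to 0.14). The 2 retroviral polymerase matches, MSTRG.1092 and MSTRG.20627, had 3.01 and 1.43 counts in siControl and 0 in siKAT7. The 160 loci with no protein match summed to 1958 counts in siControl and 2214 in siKAT7, a log2 ratio of 0.28 (0.19 to 0.37). Of these, 26 passed 1 CPM, 19 above 0 and 7 below.

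Unnamed loci were short. The length column ran from 200 to 6227 bases with a median of 377, against a median of 957 for named rows. No locus was under 200 bases and 3 were at 200, while 12.6% of named rows were shorter than 200. Lengths under 500 bases were found for 206 loci, or 62.2%, against 30.1% of named rows, and 14 loci had 2000 bases or more. All loci together covered 210602 bases. MSTRG.24216, MSTRG.6579, MSTRG.1130 and MSTRG.11444 were the 4 loci over 5000 bases, and MSTRG.6579 and MSTRG.11444 had 523 and 200 counts over both libraries.

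Longer loci had more counts. Spearman's rho of length and summed counts was 0.78 across the 306 loci with counts, which share 2 libraries and are not independent replicates. It was 0.41 for counts per kb. Length and counts of an assembled model both rest on aligned reads, so neither rho relates independent measures. The median summed count rose from 7 in 124 loci of 200 to 299 bases to 33.5 in 74 loci of 500 to 999 bases and 244 in 14 loci of 2000 bases or more. Loci with no protein match had a median length of 319 bases and those with a Swiss-Prot match 702.

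The order of the leading loci differed per length. With counts per kb of length, MSTRG.24220 had the highest level in siControl, at 54538 counts per kb, ahead of MSTRG.24234 at 48483. In siKAT7 the order turned, with 91732 counts per kb for MSTRG.24234 and 79131 for MSTRG.24220. On this scale they ranked 61 and 67 among all rows in siControl, and 39 and 28 in siKAT7. MSTRG.24216, in spite of its length, had 439 counts per kb in siControl and 1019 in siKAT7.

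**Figure D4:**
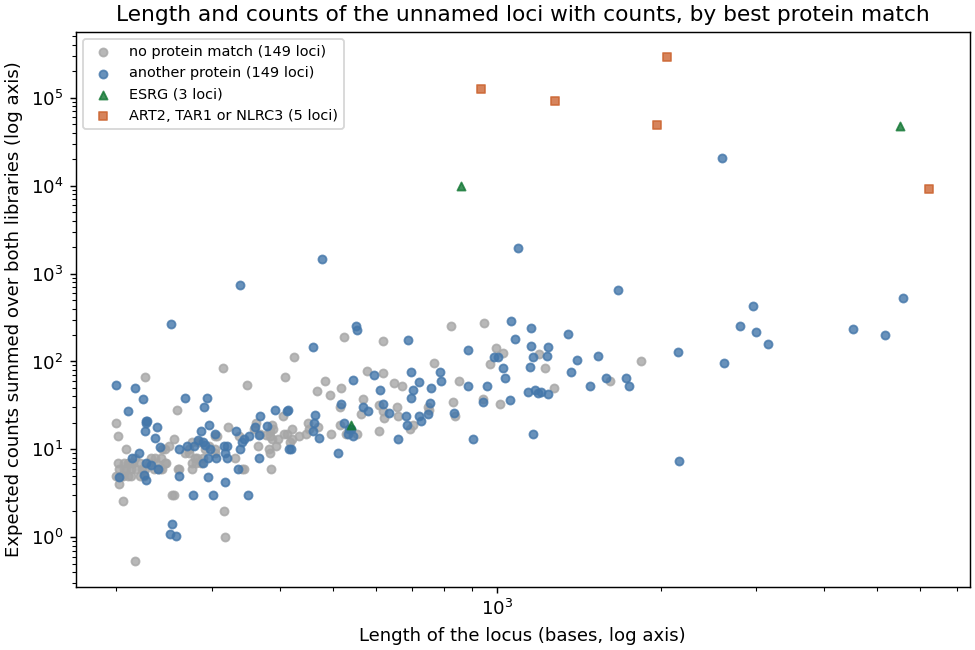
Expected counts summed over both libraries (y axis, log axis) against the length of the locus in bases (x axis, log axis) for the 306 loci with counts, marked by best protein match. The 5 loci matched to ART2, TAR1 or NLRC3 (squares) and MSTRG.1130 and MSTRG.20886, matched to ESRG (triangles), lie above loci of like length, and most other loci lie under 100 counts.

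Counts that were not whole were found for 76 of the 331 loci, or 24.8% of those with counts, against 38.2% of named rows with counts. Among the 8 largest loci 7 had such counts, and MSTRG.24233 had whole ones. Leaving out the 4 largest loci and every locus without whole counts gave a summed log2 ratio of 0.43. This sum leaves out MSTRG.1130 and leans on MSTRG.24233, with 8690 and 11793 counts and a ratio of 0.54. The next largest locus with whole counts, MSTRG.9738, had 339 and 308. Of the 54 loci with whole counts and a mean of at least 1 CPM, 4 were higher and 6 lower by the 2-fold rule.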

How the data were processed

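The deposited table gives expected counts per gene or assembled locus, which the authors made with RSEM 1.3.3 on GRCh38.p13, per the submitters' processing notes. For the assembler, aligner and strand setting: not given in the sources used here. The table also gives a length in bases and protein matches by the authors. Its 2 count columns occur again with 0 differing cells, and the 2 copies were not used. The authors' deposited table of log2 folds has no row for any of the 331 loci, so none of its values are given.

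Scaling used TMM factors of edgeR 4.0.16 in R 4.3.3 on the rounded counts of the 60623 named rows (1.04 for siControl, 0.964 for siKAT7). Log2 ratios used CPM with a prior count of 0.5, and sums used none. Exact Clopper-Pearson 95% intervals came from the split of rounded counts between the libraries. They cover counting error only, since each group has 1 library. PCR copies of 1 molecule were not marked, and the division of reads among models is not covered, so the intervals can be too narrow. Loci that averaged 1 CPM or more were called where the libraries differed 2-fold or more and the interval left out 0. Named loci were the 20 largest, those higher or lower with at least 100 counts, and those extreme in length or counts per kb; other loci with under 100 counts were named after their values were seen. Members, lists and rules were chosen with earlier results of these data known. The procedure was tested on simulated whole counts with counting error only. That simulation had no variation between cultures and no reads divided among models, so it does not cover these. Alternatives were other scalings, among them DESeq2 1.42.0 size factors, other filters, prior counts and folds, and sums without the largest loci.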

Additional observations from a re-analysis of the deposited data

How the results depend on the processing

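With 1 library per group, depth and the lack of replicates limit every ratio, and loci under 100 counts have wide intervals. No paired analysis was possible because each group has 1 library. The authors' folds could not be used as an alternative, since their table holds none of the loci. The share of the loci was 0.686% in siControl and 0.878% in siKAT7 without the largest locus, 0.223% and 0.217% without the 4 largest, and 0.990% and 1.36% by counts per kb, where the 4 largest held 83.8% and 88.9% of the loci's total. The summed log2 ratio of 0.71 became 0.60 with total-count scaling, 0.59 with library totals from all rows, 0.70 with DESeq2 size factors, 0.47 without the largest locus, 0.14 without the 10 largest and 0.67 by counts per kb. Without the 4 largest the summed ratio of 0.07 turned to -0.033 with total-count scaling and to -0.041 with library totals from all rows, because those scalings lower every ratio by 0.11 and 0.12. Chosen after seeing the data, sums without the 5 largest (0.42), without the 8 largest (0.12), without the 5 loci matched to ART2, TAR1 or NLRC3 (-0.038) and of loci with whole counts (0.43) also moved it. The 9 higher loci became 4 with library totals from all rows, 66 without a filter on low counts, 3 at a mean of 10 CPM, 19 at 1.5-fold and 4 among loci with whole counts. The 7 lower loci became 47 without the filter, 0 at 10 CPM and 4 with a prior count of 5. The median log2 ratio of 0.19 was 0.069 with total-count scaling and 0.067 with library totals from all rows, 0.36 without the filter and 0.34 at 10 CPM. Of 33 single loci followed, those 2-fold higher or lower could not change sign, since the alternatives lowered ratios by at most 0.12 or shrank them. Among the others, MSTRG.24205 went from 0.034 to -0.073 and MSTRG.23595 from 0.091 to -0.016 with total-count scaling. The counting intervals of both included 0 under TMM scaling. Some of the loci 2-fold higher or lower fell under 2-fold. With total-count scaling these were MSTRG.24234 (0.91) and MSTRG.15558 (0.98). With library totals from all rows they were MSTRG.24234 (0.91), MSTRG.24238 (0.997), MSTRG.12039 (0.9995) and MSTRG.15558 (0.97). With a prior count of 5 they were MSTRG.12039 (0.99998), MSTRG.15558 (0.92), MSTRG.8664 (-0.91), MSTRG.18333 (-0.92) and MSTRG.4286 (-0.92).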

Other observations

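The 15 loci with identifier numbers from 24200 to 24250, a range chosen after the values were seen, held 84.3% of the counts of the unnamed loci in siControl and 91.6% in siKAT7. All 5 loci matched to ART2, TAR1 or NLRC3 are among them, and so is MSTRG.24233, which has no Swiss-Prot match. The sources used here do not say what the running numbers follow.

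FP236383.3 and FP671120.4, named rows which GENCODE 29 places over 29981 and 30027 bases of chromosome 21 around 5.8S rRNA genes, also had more counts in siKAT7. FP236383.3 had 124572 counts in siControl and 166894 in siKAT7, a log2 ratio of 0.52 (0.51 to 0.53). FP671120.4 had 3115 and 7039 counts and a log2 ratio of 1.28 (1.22 to 1.34). Neither row was in the planned lists, and the other rows of this region were not examined as a set.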
